A study of Mus musculus with 6 samples.

Results

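Receptor tyrosine phosphatases are membrane proteins that remove phosphate from tyrosine residues and so oppose tyrosine kinases. Here 10 genes of this family are described in EpiLCs, the formative cells obtained from naïve mESCs: Ptprd, selected because it had the largest increase in Oct6 KO EpiLCs, and its paralogs Ptprf, Ptprs, Ptpra, Ptpre, Ptprg, Ptprj, Ptprk, Ptprm and Ptprz1. Of these, 9 had a row among the 55416 genes of the deposited counts, found through their Ensembl identifiers, and Ptprg, which had none, was not analysed here. A filter on low counts kept 8 of the 9, out of 15746 genes in all, and left out Ptprz1.

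RNA-seq was performed on 3 WT and 3 KO libraries, collected after 48 h on fibronectin in N2B27 medium with KSR at 1%, bFGF at 12 ng/ml and Activin A at 20 ng/ml, as the labels give them; the study's own description of the medium has µg/ml in place of ng/ml for both. All cells came from 2i + LIF culture. WT cells were the 46C mESC line, which carries GFP under control of the neural gene Sox1, and KO cells were a single CRISPR/Cas9 clone of that line with a homozygous insertion of an adenine in Oct6 (Pou3f1), so that the genotype cannot be told apart from the history of the clone. Replicates with the same number were paired. Library totals ran from 10995505 to 14680930 counts and between 23223 and 24634 genes were detected. Transcripts of the targeted gene were still counted: Pou3f1 had 2156, 1563 and 1805 counts in WT and 1567, 1825 and 1708 in KO replicates 1 to 3, which overlapped (log2 fold change −0.10, SE 0.11, adjusted p = 0.574), and gene counts do not separate transcripts that carry the insertion. All 8 markers listed for pluripotent EpiLCs were detected, with summed levels of 3133 to 3463 CPM in WT and 3036 to 3168 CPM in KO libraries. The largest parts of these sums were Dnmt3b and Pou5f1, which were not called. Otx2, Fgf5 and Sox2 were higher in KO, with log2 fold changes of 0.92, 0.65 and 0.42 (adjusted p = 1.7e-04, 3.8e-04 and 0.0283), the Sox2 call being lost in 2 of 13 alternatives. CPM are counts scaled to the TMM-normalized library size (edgeR's CPM), and differences were tested with edgeR over all genes, a gene being called at an adjusted p below 0.1, the FDR used in the study. Genes of chromosome 16 were shifted upwards as a whole, with a median log2 fold change of 0.55 over 471 genes. Those of chromosome 6 had a lowered median of −0.40 over 773 genes, of which 356 were called lower and 35 higher. The median over all genes tested was 0.0014.

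The family is divided by its extracellular parts. PTPRD, PTPRF (also called LAR) and PTPRS form the LAR type, with immunoglobulin and fibronectin repeats outside the cell and tandem phosphatase domains inside; they bind adhesion proteins and proteoglycans, organize synapses and hold liprins and TRIO at their cytoplasmic side. PTPRA and PTPRE have short ectodomains and act on Src-family kinases, PTPRJ has fibronectin repeats and a lone phosphatase domain, PTPRK and PTPRM are homophilic adhesion receptors found at cell contacts, and PTPRG and PTPRZ1 carry a carbonic anhydrase-like domain that binds contactins.

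Among the 7 paralogs tested, Ptprj was higher in KO EpiLCs, Ptprs and Ptpra were lower, and Ptprf, Ptpre, Ptprk and Ptprm did not pass the threshold. Over all genes tested, 24.3% were called, 11.8% higher and 12.5% lower in KO. The median log2 fold change of the paralogs was −0.12. The bases before the annotated starts of the 3 paralogs that passed the test are shown to place these genes beside the POU octamer that OCT6 and its relatives can bind and beside the GC box of Sp and KLF factors. Capitals mark a GC box, GGGCGG or its reverse complement CCGCCC. Each run covers 250 bases immediately upstream of the RefSeq start on GRCm38.p6, a different build from that of the counts, and is written 5′ to 3′ on the strand of the gene: chr17:56476481-56476730, minus strand, for Ptprs, chr2:130450028-130450277, plus strand, for Ptpra and chr2:90580596-90580845, minus strand, for Ptprj.
Ptprs: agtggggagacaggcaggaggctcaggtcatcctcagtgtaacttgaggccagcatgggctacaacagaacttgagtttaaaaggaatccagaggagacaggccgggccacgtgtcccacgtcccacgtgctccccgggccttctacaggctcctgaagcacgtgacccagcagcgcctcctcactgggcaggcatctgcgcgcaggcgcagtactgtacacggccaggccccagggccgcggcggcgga
Ptpra: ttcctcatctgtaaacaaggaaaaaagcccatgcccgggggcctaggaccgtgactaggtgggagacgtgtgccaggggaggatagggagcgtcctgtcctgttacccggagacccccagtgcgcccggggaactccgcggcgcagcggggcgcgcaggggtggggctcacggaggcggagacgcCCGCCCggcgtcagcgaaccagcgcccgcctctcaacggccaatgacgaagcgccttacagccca
Ptprj: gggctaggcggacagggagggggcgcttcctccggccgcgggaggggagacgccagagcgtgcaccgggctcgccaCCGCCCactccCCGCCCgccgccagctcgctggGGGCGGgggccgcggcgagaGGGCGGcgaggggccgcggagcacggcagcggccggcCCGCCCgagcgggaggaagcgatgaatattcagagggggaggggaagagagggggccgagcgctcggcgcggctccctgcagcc
The Ptpra run, the only window of that gene, held 1 GC box at 68.0% GC. Ptprj and Ptprs have 2 windows each, of which the first is shown. The Ptprj run held 5 GC boxes at 79.2% GC and its second window 0 at 44.8%, while the Ptprs run held 0 at 64.0% GC and its second window 3 at 64.8%. RefSeq windows were found for 9 of the 10 genes, 14 windows in all, and Ptprd had no entry. The POU octamer ATGCAAAT, read on both strands, was in 0 of the 14 windows and in 1.60% of 32851 windows of all genes. A GC box, also on both strands, was in 8 of the 14 windows, against 32.7% of all windows. These matches describe the letters of the windows and do not show binding.

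Ptprd went from barely detected in WT to clearly detected in KO EpiLCs. The gene covers chr4:75859475-78130198 on the minus strand (GRCm39), a length of 2271 kb. Its counts were 10, 6 and 17 in WT and 210, 156 and 229 in KO replicates 1 to 3, sums of 33 and 595. On the CPM scale these were 0.746, 0.548 and 1.15 in WT and 17.0, 12.0 and 17.2 in KO. Every KO library was far above every WT library, the lowest KO value being 10.5 times the highest WT value. The means were 0.815 ± 0.307 CPM in WT and 15.4 ± 2.94 CPM in KO (SD, n = 3), 18.9 times as high, and the fitted log2 fold change was 4.19 with an SE of 0.27. Taken by pairs of the same number, the log2 differences were 4.25, 4.12 and 3.74. This difference is what the gene was chosen for and is given as a description without a test. In bulk RNA, more cells that express Ptprd and more Ptprd RNA per cell cannot be told apart.

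The position of Ptprd as the gene with the largest increase held among genes with an average log2 CPM of at least 1. There, the next gene was Tmprss11d, a transmembrane serine protease, with a log2 fold change of 3.65. Below that level Rarres1, with means of 0.0249 CPM in WT and 0.934 CPM in KO, had a larger fitted value of 4.74 with an SE of 0.85. Of 9 annotated genes that overlap Ptprd, 8 had no counts, and Gm11246, a processed pseudogene on the opposite strand, had 15 counts over the 6 libraries.

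**Figure D1:**
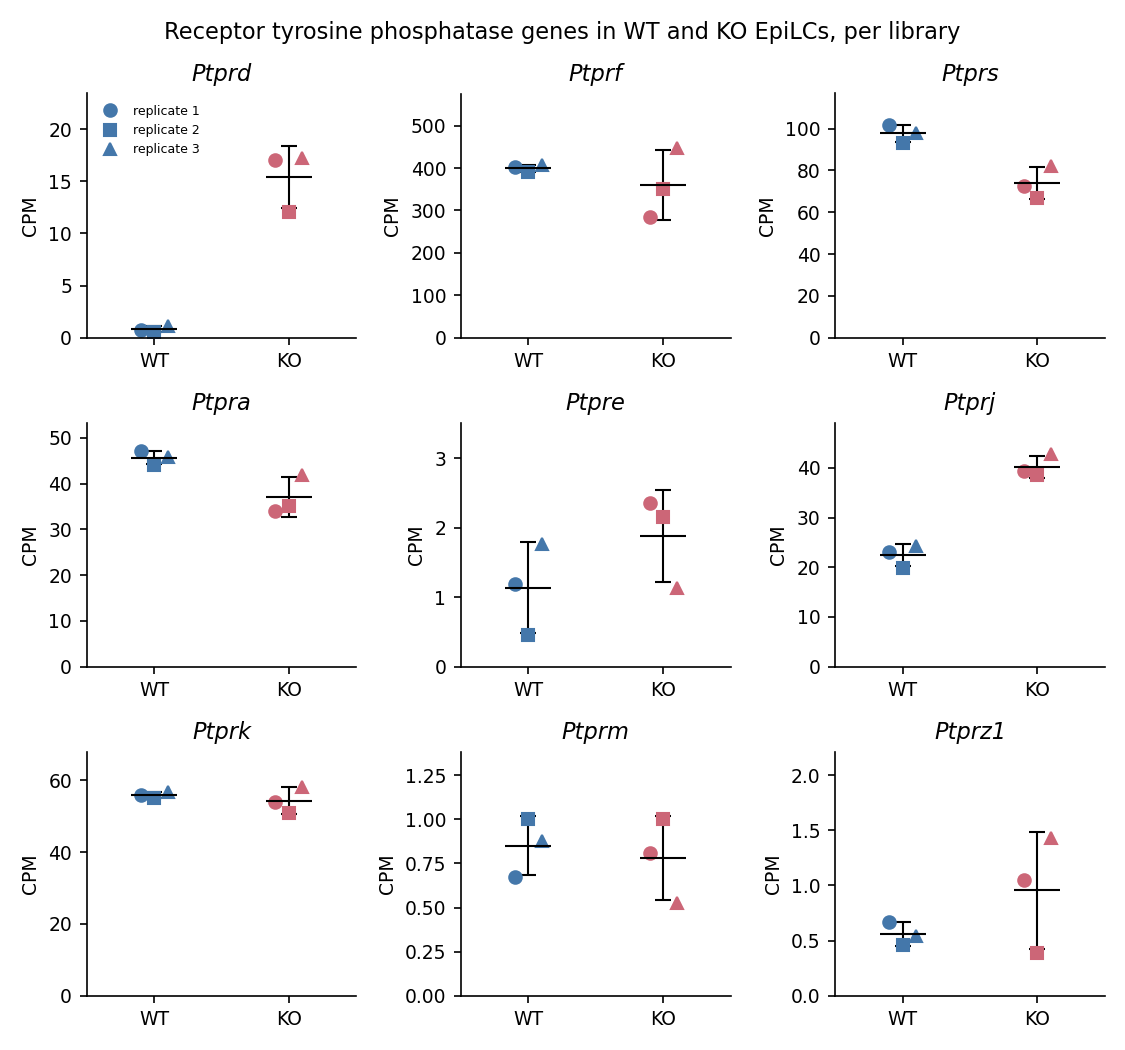
CPM of the 9 receptor tyrosine phosphatase genes with a row, in WT (blue) and KO (red) EpiLCs; each symbol is a library, with the shape giving the replicate number, and horizontal bars and whiskers give the mean and SD of 3 libraries. Ptprd, which was chosen by its increase, lies between 0.548 and 1.15 CPM in WT and between 12.0 and 17.2 CPM in KO.

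The other LAR-type genes did not follow Ptprd. Ptprs (chr17:56718507-56783537, minus strand), whose product is a receptor for heparan and chondroitin sulfate proteoglycans, was lower in KO EpiLCs. It measured 101.7, 93.3 and 98.1 CPM in WT and 72.4, 67.0 and 82.1 CPM in KO replicates 1 to 3. All KO libraries were below all WT libraries. Ptprs fell by 0.40 on the log2 scale (SE 0.10, adjusted p = 0.0085), from 97.7 ± 4.25 to 73.8 ± 7.61 CPM (SD, n = 3). Omitting any of the 6 libraries left it past the threshold, at log2 fold changes from −0.49 to −0.34.

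Ptprf (chr4:118065042-118148627, minus strand) encodes LAR itself and was the most abundant gene of the family in both groups. Its values were 401.5, 390.5 and 406.5 CPM in WT and 283.7, 349.6 and 446.4 CPM in KO. The KO libraries spread on both sides of the WT libraries, with a coefficient of variation of 22.7% against 2.06% in WT, KO replicate 1 being the lowest and KO replicate 3 the highest of all 6. The log2 fold change was −0.15 (SE 0.12, adjusted p = 0.462), and the pairs differed in direction, at −0.50, −0.16 and 0.13. Without KO replicate 3 the log2 fold change was −0.33 and passed the threshold (adjusted p = 0.0678).

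Ptpra (chr2:130291839-130400220, plus strand), whose product activates Src-family kinases by removing their inhibitory phosphate, was lower in KO EpiLCs by a small amount. It measured 47.0, 44.2 and 45.7 CPM in WT and 34.1, 35.1 and 42.0 CPM in KO. The groups did not overlap, although KO replicate 3 came close to the lowest WT library. Ptpra fell by 0.30 on the log2 scale (SE 0.11, adjusted p = 0.0772), from 45.6 ± 1.43 to 37.1 ± 4.28 CPM (SD, n = 3). This call was fragile: it was lost when any library other than KO replicate 3 was left out, with adjusted p from 0.104 to 0.251, and with DESeq2 and a replicate block (adjusted p = 0.139). With edgeR and a replicate block it was kept (log2 fold change −0.30, adjusted p = 0.0381).

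Ptpre (chr7:135139210-135288022, plus strand), the close relative of Ptpra, was scarce, with 16, 5 and 26 counts in WT and 29, 28 and 15 in KO. WT replicate 3 was above KO replicate 3, so that the groups overlapped. The log2 fold change of 0.67 had an SE of 0.44 (adjusted p = 0.331).

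Ptprj (chr2:90260098-90410991, minus strand) encodes a phosphatase also named DEP-1 or CD148, which acts on growth factor receptors. It measured 23.1, 19.9 and 24.3 CPM in WT and 39.3, 38.5 and 42.7 CPM in KO. All KO libraries were above all WT libraries, and the spread within each group was small beside the difference. Ptprj rose by 0.84 on the log2 scale (SE 0.12, adjusted p = 8.1e-05), from 22.4 ± 2.28 to 40.2 ± 2.25 CPM (SD, n = 3), which is 1.79 times as high. The log2 differences of the pairs were 0.76, 0.95 and 0.81, and the fitted value lay between 0.76 and 0.90 whichever library was omitted.

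Ptprk and Ptprm did not pass the threshold. Ptprk (chr10:27950330-28474223, plus strand) had 55.9, 55.0 and 56.8 CPM in WT and 54.0, 50.8 and 58.3 CPM in KO. Its groups overlapped, and the log2 fold change was −0.04 (SE 0.10, adjusted p = 0.846). Ptprm (chr17:66973841-67662085, minus strand), which mediates homophilic contacts like Ptprk, had 9, 11 and 13 counts in WT and 10, 13 and 7 in KO. These counts overlapped and gave a log2 fold change of −0.12 with an SE of 0.46 (adjusted p = 0.902), an error too wide to say how far the levels differed.

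Ptprz1 (chr6:22875358-23054236, plus strand), a receptor for pleiotrophin known from glia and neural progenitors, had 9, 5 and 8 counts in WT and 13, 5 and 19 in KO and was not tested. KO replicate 2 lay at the level of the WT libraries, so that the groups overlapped. The gene lies on chromosome 6, whose genes had a median log2 fold change of −0.40. Genes that overlap the other members in the annotation added little: at most 14 counts over the 6 libraries were assigned to any of them.

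Levels of different genes were compared after division by the summed exon length of each gene, as CPM per kb. Ptprf was the highest in both groups, at 41.7 ± 0.859 CPM per kb in WT and 37.6 ± 8.55 in KO (SD, n = 3). It was followed in WT by Ptprs at 5.73, Ptpra at 3.25, Ptprj at 2.69 and Ptprk at 2.53 CPM per kb, of which Ptprj (2.38 to 2.91 over the libraries) and Ptprk (2.49 to 2.57) did not differ beyond their spread. A gap separated these from Ptpre at 0.107, Ptprm at 0.0546, Ptprd at 0.0327 and Ptprz1 at 0.0297 CPM per kb, whose ranges overlapped from each to the next. Ptprd was thus the eighth of 9 genes in WT EpiLCs.

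In KO EpiLCs the order changed mainly through Ptprd and Ptprj. Ptprm and Ptprz1 also changed their relative order, with overlapping ranges. Ptprd reached 0.619 ± 0.118 CPM per kb and was the sixth of 9 genes, above Ptpre at 0.177, Ptprz1 at 0.0510 and Ptprm at 0.050 and below Ptprk at 2.46 CPM per kb. Its KO range, from 0.483 to 0.691, overlapped with that of none of the others. Ptprj moved from the fourth to the second place with 4.81 CPM per kb, ahead of Ptprs at 4.33, although the ranges of these genes, 4.61 to 5.12 and 3.93 to 4.81, overlapped. With the longest transcript as the length, Ptprd kept the eighth and the sixth place, while in WT Ptprk, at 7.17 CPM per kb, was above Ptpra at 5.87. Ptprj did not hold the second place by that length: at 5.26 CPM per kb in KO it was below Ptprs at 9.72 and Ptprk at 6.98.

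**Figure D2:**
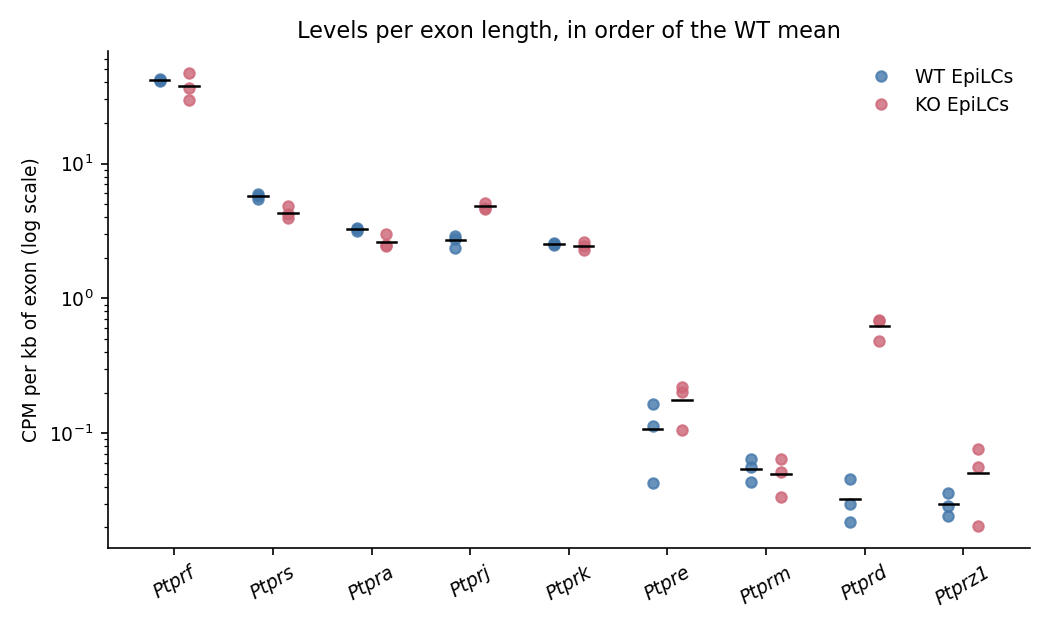
CPM per kb of summed exon length on a log axis, for the 9 genes in order of their WT mean, with each point a library (blue, WT; red, KO) and each bar the mean of 3. Ptprd moves from a mean of 0.0327 in WT to 0.619 in KO, between the 5 abundant genes above 2 and the scarce genes below it.

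As a share of the summed level of the 9 genes per kb, Ptprd took 0.0579% ± 0.0206 in WT and 1.19% ± 0.303 in KO (SD, n = 3). Ptprf took 74.3% ± 0.550 and 70.9% ± 3.79, and Ptprj 4.78% ± 0.362 and 9.26% ± 1.24. The shares depend on the length used, and with the longest transcript Ptprd took 0.0977% ± 0.0349 and 2.02% ± 0.472. The summed level was 56.2 ± 1.51 CPM per kb in WT and 52.7 ± 9.49 in KO, and ranged in KO from 44.5 to 63.1, on both sides of the WT range of 54.4 to 57.3. Within the LAR type alone, Ptprd went from 0.0685% to 1.49% of the level per kb by the measure it was selected on, with Ptprf at 87.9% in WT and 88.1% in KO and Ptprs at 12.1% and 10.4%. The LAR type thus remained mostly Ptprf in both groups.

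A further 11 receptor-type phosphatases were listed, of which 6 were tested. Of those, 2 were higher in KO, 2 lower, and the median log2 fold change was 0.49. The share called was 66.7%, against 24.3% of all genes tested. Ptprn, a phosphatase-like protein of secretory granules without activity, was lower in KO, with 6.72, 6.11 and 3.65 CPM in WT and 2.84, 2.01 and 1.81 CPM in KO. The groups did not overlap, and Ptprn fell by 1.30 on the log2 scale (SE 0.29, adjusted p = 0.0036). Ptprv rose by 0.64 (SE 0.18, adjusted p = 0.0172), from 14.95 ± 3.79 to 23.4 ± 5.19 CPM (SD, n = 3), a call that was lost without KO replicate 1 (log2 fold change 0.44, adjusted p = 0.138).

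Ptprt and Ptpru belong to the same adhesion type as Ptprk and Ptprm. Ptprt was higher in KO, at 2.91, 1.00 and 2.23 CPM in WT and 6.40, 2.01 and 4.96 CPM in KO. Replicate 2 was the lowest library of its group in both genotypes, and the KO value there was below 2 of the WT values, so that the groups overlapped. Within each pair of the same number KO was above WT. The log2 fold change was 1.09 (SE 0.39, adjusted p = 0.0567), and the call was lost when WT replicate 2 or 3, or KO replicate 1 or 3, was omitted, with adjusted p from 0.109 to 0.294. It was kept with a replicate block, in edgeR (adjusted p = 0.0024) and in DESeq2 (adjusted p = 0.0565). Ptpru fell by 0.49 (SE 0.19, adjusted p = 0.0743), from 9.69 ± 0.863 to 6.89 ± 0.838 CPM (SD, n = 3), with no overlap of the groups. That call was lost when WT replicate 2 or 3, or KO replicate 1 or 2, was omitted, with adjusted p from 0.117 to 0.246, and also with DESeq2 (adjusted p = 0.134) and with DESeq2 and a replicate block (adjusted p = 0.247). Ptprn2 and Ptpro did not pass the threshold. Ptprb, Ptprc, Ptprh, Ptprq and Ptprr, among them the leukocyte gene Ptprc (CD45), were below the filter.

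**Figure D3:**
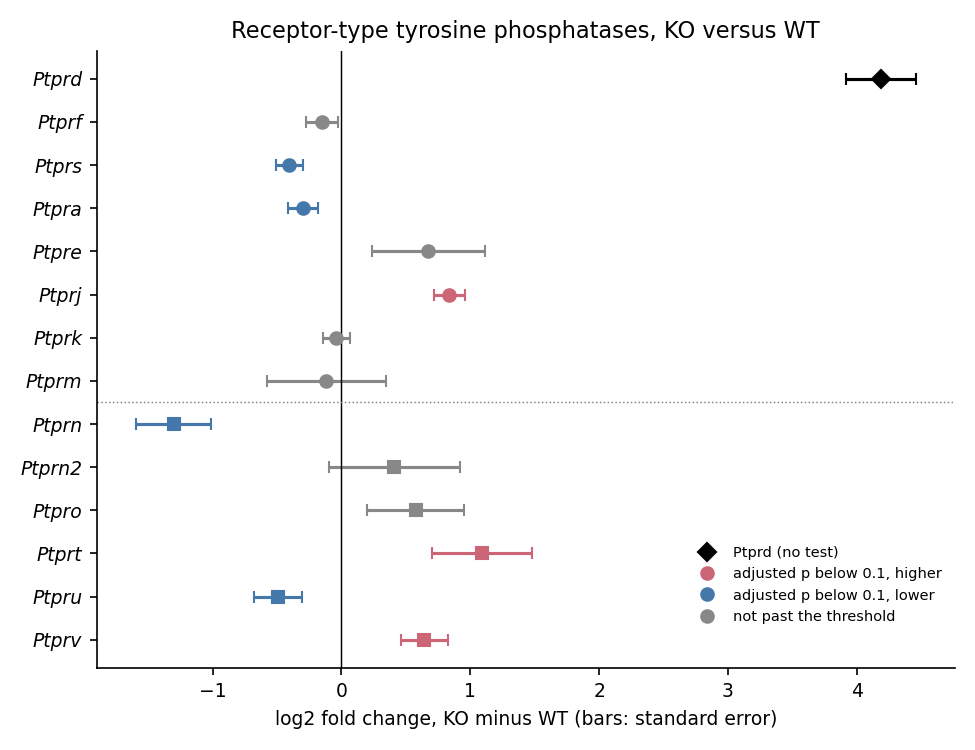
Log2 fold change between KO and WT EpiLCs, with SE, for the receptor-type phosphatases that were tested, the 8 family members first named above the dotted line and the other 6 below it. Ptprd, shown without a test, stands at 4.19, and the others lie between −1.30 for Ptprn and 1.09 for Ptprt.

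Extracellular partners of the LAR type include SLITRK and LRFN adhesion proteins, receptors of the interleukin-1 family, and the heparan sulfate proteoglycans of the glypican and syndecan families. Of 24 listed, 14 were tested. Among them 6 were higher in KO, 1 was lower, and the median log2 fold change was 0.28. Thus 50% of those tested were called, against 24.3% of all genes. The proteoglycans Gpc3, Gpc6, Sdc2 and Sdc4 were among those that were higher, with Gpc1, Gpc4, Sdc1 and Sdc3 not called. Gpc3 measured 22.6, 24.3 and 29.6 CPM in WT and 62.7, 57.7 and 55.4 CPM in KO. With all KO libraries above all WT libraries, Gpc3 rose by 1.2 on the log2 scale (SE 0.12, adjusted p = 2.1e-06).

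Sdc2 rose by 0.73 (SE 0.17, adjusted p = 0.0052), from 9.83 ± 1.24 to 16.4 ± 3.05 CPM (SD, n = 3). Gpc6 was scarcer, at 1.32 ± 0.456 CPM in WT and 2.97 ± 0.662 in KO, and its log2 fold change was 1.14 (SE 0.35, adjusted p = 0.0274). The Gpc6 call was lost without WT replicate 2 or KO replicate 1 and with DESeq2 and a replicate block, with adjusted p of 0.111, 0.119 and 0.121. Sdc4 was the most abundant of these proteoglycans by CPM, at 209 ± 34.2 in WT and 285 ± 47.0 in KO (SD, n = 3), but its groups overlapped by WT replicate 1 and KO replicate 2. Its log2 fold change of 0.44 (SE 0.13, adjusted p = 0.0170) was not past the threshold without KO replicate 1 (0.30, adjusted p = 0.143).

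The synaptic adhesion gene Slitrk5 had 2.09, 1.19 and 2.10 CPM in WT and 4.86, 2.24 and 4.44 CPM in KO. Replicate 2 was the lowest in both groups, and the log2 fold change was 1.08 (SE 0.34, adjusted p = 0.0307), lost without WT replicate 2, KO replicate 1 or KO replicate 3, with adjusted p from 0.119 to 0.148. Il1rap, the shared accessory receptor of the interleukin-1 family and a ligand of PTPRD, was at 2.54 ± 0.517 CPM in WT and 4.26 ± 0.760 in KO (SD, n = 3). Its log2 fold change of 0.74 (SE 0.27, adjusted p = 0.0674) stands beside the upward shift of 0.55 of chromosome 16, on which it lies. The Il1rap call was lost with DESeq2 (adjusted p = 0.140), with DESeq2 and a replicate block (adjusted p = 0.234) and without WT replicate 2 or 3 or KO replicate 1 or 3, with adjusted p from 0.119 to 0.245. Lrfn4 was the gene called lower, from 39.8 ± 6.32 to 30.2 ± 0.456 CPM (log2 fold change −0.40, SE 0.13, adjusted p = 0.0337), and its call was lost without WT replicate 1 or 2, with adjusted p of 0.146 and 0.102; it is named after its values were seen. Slitrk6 and Il1rapl2 had no counts in any library.

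The ligands of PTPRZ1 and PTPRG were split. Of 14 listed, 7 were tested. Among them 2 were higher, 2 lower, and the median log2 fold change was −0.38. The calls made up 57.1% of the tested ligands, against 24.3% of all genes. Ptn, which encodes the growth factor pleiotrophin, had 1.49, 1.10 and 1.76 CPM in WT and 6.16, 4.86 and 3.23 CPM in KO. All KO libraries were above all WT libraries, and Ptn rose by 1.69 on the log2 scale (SE 0.32, adjusted p = 8.4e-04). It lies on chromosome 6, whose median was lowered. Mdk, the related and far more abundant midkine gene, was at 132 ± 7.89 CPM in WT and 122 ± 18.5 in KO (SD, n = 3) and did not pass the threshold (log2 fold change −0.11, adjusted p = 0.562). Nrcam rose by 1.06 (SE 0.20, adjusted p = 9.4e-04), from 9.57 ± 1.73 to 20.0 ± 6.29 CPM. In contrast, the contactin gene Cntn2 fell by 1.10 (SE 0.26, adjusted p = 0.0053), from 12.99, 6.66 and 6.63 CPM in WT to 4.21, 3.47 and 4.59 CPM in KO. Its WT replicate 1 stood far above the other WT libraries, and without it the log2 fold change was −0.70 (adjusted p = 0.0503). The neurofascin gene Nfasc fell by 0.65 (SE 0.20, adjusted p = 0.0308), from 11.7 ± 2.91 to 7.52 ± 1.36 CPM, a call that was lost without WT replicate 1, KO replicate 2 or KO replicate 3, with adjusted p from 0.112 to 0.184.

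Inside the cell, 15 of 19 listed partners of the LAR type were tested. Of these, 2 were higher in KO, 3 lower, and the median log2 fold change was −0.035. The share called was 33.3%, against 24.3% of all genes tested. Ppfia3, which encodes a liprin-alpha, fell by 0.93 (SE 0.24, adjusted p = 0.0090), from 6.45 ± 0.857 to 3.37 ± 0.715 CPM (SD, n = 3). The more abundant liprin-alpha gene Ppfia1 was at 106 ± 6.48 CPM in WT and 97.6 ± 4.13 in KO and did not pass the threshold (log2 fold change −0.11, adjusted p = 0.481). Ppfibp1, a liprin-beta gene, fell by 0.41 (SE 0.095, adjusted p = 0.0041), which is close to the median of −0.40 of chromosome 6, where it lies. Trio, a guanine nucleotide exchange factor, had 239, 178 and 182 CPM in WT and 160, 140 and 139 CPM in KO. The groups did not overlap, and Trio fell by 0.45 (SE 0.12, adjusted p = 0.0093). Both genes that were higher encode scaffold or actin regulators: Enah rose by 0.38 (SE 0.10, adjusted p = 0.0131), from 263 ± 23.5 to 342 ± 33.3 CPM, and Cask rose by 0.54 (SE 0.13, adjusted p = 0.0067), from 19.2 ± 2.36 to 28.0 ± 1.12 CPM.

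All 17 listed Src-family kinases and adhesion substrates were tested. Among them 2 were higher, 2 lower, and the median log2 fold change was −0.040. The share called, 23.5%, was near the 24.3% of all genes tested. Lck measured 13.2, 14.2 and 12.9 CPM in WT and 7.86, 9.26 and 6.17 CPM in KO. All KO libraries were below all WT libraries, and Lck fell by 0.79 on the log2 scale (SE 0.18, adjusted p = 0.0039). Ptk2b, a focal adhesion kinase also named PYK2, rose by 0.72 (SE 0.16, adjusted p = 0.0038), from 14.7 ± 3.02 to 24.3 ± 3.71 CPM (SD, n = 3). Stat3, a substrate of several phosphatases, fell by 0.38 (SE 0.12, adjusted p = 0.0354), from 42.3 ± 1.48 to 32.6 ± 4.55 CPM, but was not called without KO replicate 2 (log2 fold change −0.28, adjusted p = 0.194). Src itself, at 74.8 ± 2.00 CPM in WT and 88.0 ± 12.4 in KO, did not pass the threshold (log2 fold change 0.23, adjusted p = 0.155), but did so with a replicate block in edgeR (0.23, adjusted p = 0.0855) and without KO replicate 1 (0.32, adjusted p = 0.0719).

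Among 15 tested of 17 listed cytosolic phosphatases, 2 were higher, 1 was lower, and the median log2 fold change was −0.070. The share called, 20%, was near the 24.3% of all genes tested. Ptpn13, a large phosphatase with FERM and PDZ domains, measured 102, 101 and 94.3 CPM in WT and 184, 160 and 174 CPM in KO. The groups were well apart, and Ptpn13 rose by 0.80 (SE 0.097, adjusted p = 1.4e-05), a change close in size to that of Ptprj. Ptpn9 fell by 0.72 (SE 0.15, adjusted p = 0.0017), from 20.8 ± 1.33 to 12.7 ± 1.29 CPM (SD, n = 3). Ptpn6, which encodes SHP-1, rose by 0.51 (SE 0.14, adjusted p = 0.0169) and lies on chromosome 6, whose median was lowered.

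**Figure D4:**
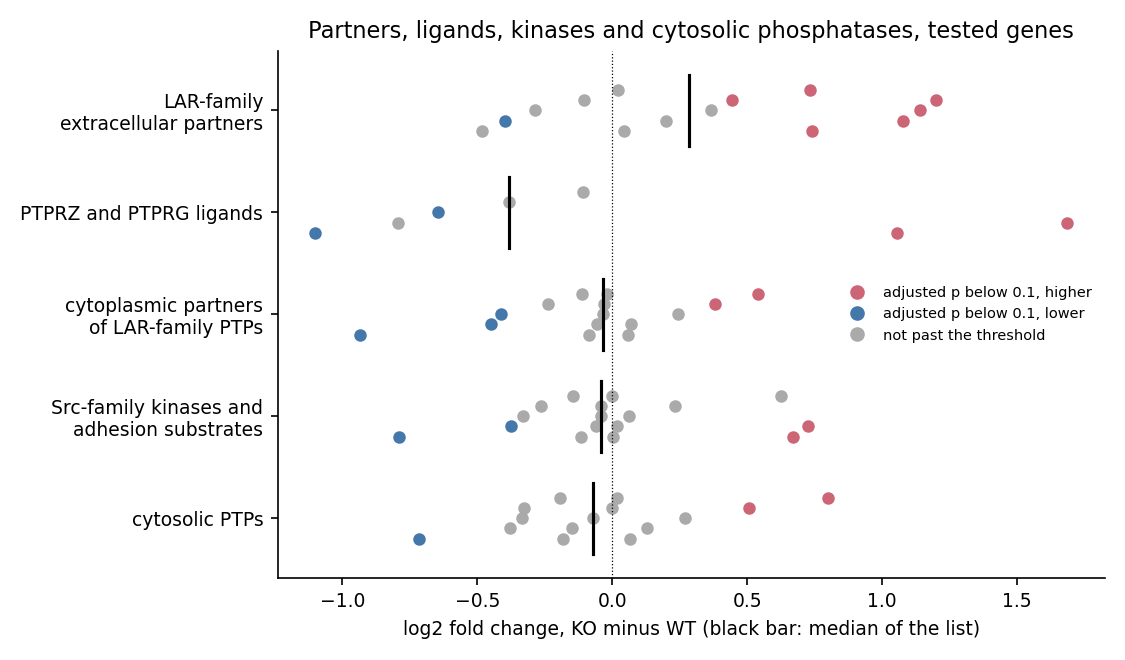
Log2 fold change between KO and WT EpiLCs for the tested genes of 5 lists, each point a gene coloured by its call and each black bar the median of a list. The medians lie at 0.28 for extracellular partners, −0.38 for the ligands of PTPRZ1 and PTPRG, −0.035 for cytoplasmic partners, −0.040 for Src-family kinases and substrates and −0.070 for cytosolic phosphatases.

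The genomic neighbours of Ptprd are given as a description, because Ptprd was chosen by the size of its increase. Among the 10 nearest tested genes, 5 on each side, 4 were higher in KO and the other 6 were not called. Called higher were 11.8% of all genes tested and 138 of the 985 genes tested on chromosome 4. The median log2 fold change of the 10 neighbours was 0.17, against a median of 0.012 over those 985 genes. The nearest on the lower side, Dmac1, lay 662.9 kb away (log2 fold change 0.21, adjusted p = 0.248), and the nearest on the higher side, the pseudogene Gm11263, 1116 kb away (−0.04, adjusted p = 0.941). The 4 that were higher are named after their values were seen. Rasef, a Rab-type GTPase gene 2150 kb away, had 8.21, 10.1 and 10.1 CPM in WT and 33.8, 28.1 and 31.7 CPM in KO. All KO libraries were well above the WT libraries, and Rasef rose by 1.72 (SE 0.15, adjusted p = 2.7e-07). Kdm4c, a histone demethylase gene between Rasef and Ptprd, rose by 0.47 (SE 0.096, adjusted p = 0.0018), from 189.6 ± 15.9 to 262.4 ± 5.78 CPM (SD, n = 3). On the other side Lurap1l rose by 0.91 (SE 0.27, adjusted p = 0.0205) and the transcription factor gene Nfib by 0.54 (SE 0.15, adjusted p = 0.0123). The Lurap1l call was lost with DESeq2 and a replicate block (adjusted p = 0.134).

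**Figure D5:**
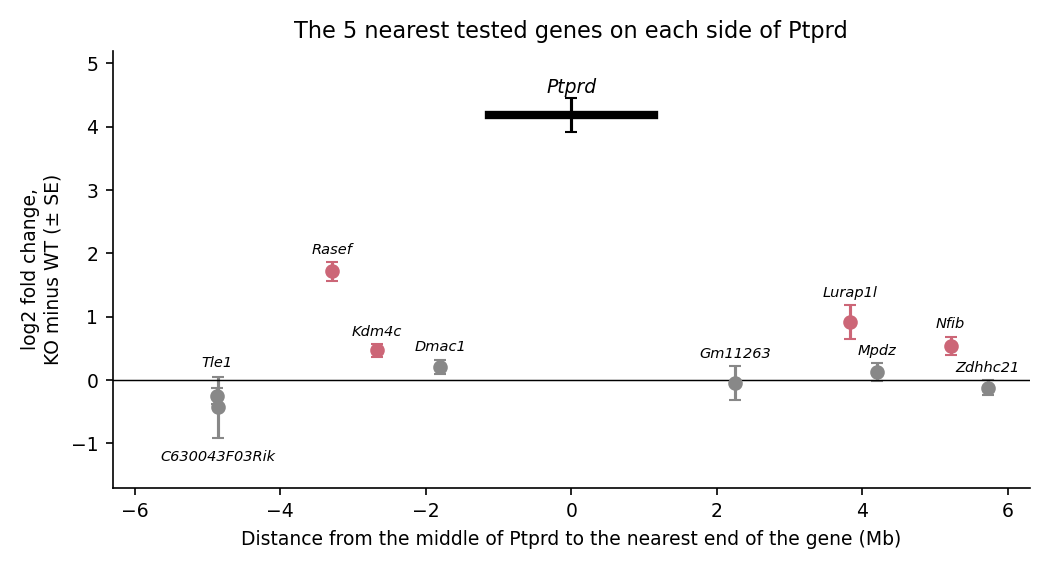
Log2 fold change between KO and WT EpiLCs, with SE, against the distance in Mb from the middle of Ptprd, for Ptprd (black bar, drawn to its length) and the 5 nearest tested genes on each side (red, called higher; grey, not called). Ptprd stands at 4.19, Rasef at 1.72, Lurap1l at 0.91, and the others lie between −0.43 and 0.54.

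Genes with a profile like that of Ptprd were sought over the 6 libraries by the Euclidean distance between log2 CPM values centred on each gene's mean, among 13228 genes with an average log2 CPM of at least 1. The nearest was Tmprss11d at a distance of 1.19, with 0.821, 0.639 and 0.541 CPM in WT and 8.26, 7.71 and 9.40 CPM in KO. Like Ptprd, this gene was below 2 CPM in every WT library and several-fold higher in every KO library. Xlr3c, an X-linked gene with close paralogs, followed at 1.77, from 6.90 ± 0.944 to 47.4 ± 7.28 CPM (SD, n = 3). The amino acid transporter gene Slc38a4 came next at 1.97, from 30.6 ± 4.93 to 177.5 ± 2.05 CPM. Tdh, the threonine dehydrogenase gene of naïve cells, stood at 2.21, from 16.4 ± 1.92 to 84.7 ± 8.07 CPM, and the pseudogene Gm48691 at 2.26. The measure takes in the size of the difference between the groups together with the spread within them.

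Markers of cell types in which these phosphatases are known were read in the same libraries. Of all genes tested, 24.3% were called, 11.8% higher and 12.5% lower in KO. Of 10 neuronal markers 7 were tested, 1 being higher (Nefl) and 2 lower (Tubb3 and Syt1, the latter called in 7 of 12 alternatives), with summed levels of 141 to 148 CPM in WT and 144 to 157 in KO. Neural progenitor and glial markers summed to 43.9 to 44.4 CPM in WT and 44.9 to 48.8 in KO, with 2 of 6 tested. Most of this sum was Slc1a3, at 39.3 CPM in WT and 44.6 in KO, which was not called. Sox1 was lower, from 3.66 to 1.06 CPM (log2 fold change −1.78, adjusted p = 0.0073). Pax6, Fabp7 and Gfap were below the filter, and Olig2 was at 0 in all libraries. Of 8 primitive endoderm markers 4 were tested and 2 were higher, Gata6 and Pdgfra, with summed levels of 6.84 to 9.18 CPM in WT and 6.63 to 18.6 in KO. Sox17 and Dab2 were not called, and Afp, not tested, had 10, 5 and 11 counts in WT and 2, 1 and 0 in KO. Gata6 had 3.56, 2.01 and 4.96 CPM in KO, the lowest in replicate 2, where Ptprd, Ptprt and Slitrk5 were also at their lowest among KO libraries. Sox17, Pdgfra and Dab2 were also lowest in KO replicate 2. In WT, where Ptprd, Ptprt and Slitrk5 were lowest in replicate 2, the tested markers differed in order. Gata6 had 1.34, 1.73 and 1.08 CPM and Sox17 0.746, 1.46 and 0.406, both highest in replicate 2. Pdgfra had 2.24, 0.821 and 2.16 CPM and Dab2 3.28, 1.73 and 2.77, both lowest in replicate 2. The Gata6 log2 fold change was 1.35 (adjusted p = 0.0121) and was not past the threshold without KO replicate 3 (1.02, adjusted p = 0.113). The part of primitive endoderm cells in the values of Ptprd was not tested. The Pdgfra call, at a log2 fold change of 0.94 (adjusted p = 0.0991), was lost in 9 of 14 alternatives, with adjusted p up to 0.332. Of 7 trophoblast markers 2 were tested and 1 was lower, with sums of 10.6 to 12.9 CPM in WT and 6.32 to 8.99 in KO. Within these sums the mean of Krt7 went from 6.79 to 3.36 CPM and that of Ascl2 from 3.76 to 3.50. Of 8 fibroblast markers 3 were tested and 1 was lower, with sums of 8.30 to 9.93 CPM in WT and 5.09 to 6.02 in KO.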

How the data were processed

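RNA was sequenced from 3 WT and 3 KO EpiLC libraries, made with a stranded total RNA kit after removal of ribosomal RNA and read in pairs. After FastQC and Fastp, the authors aligned reads to GRCm39 by two-pass STAR, which also gave the raw counts per gene that were deposited; the STAR version, annotation and strand setting are not given in the sources used here. Of 55416 identifiers, 54749 matched GENCODE M39, which gave symbols, positions and exon lengths. Counts were tested in R 4.3.3 with edgeR 4.0.16 (filterByExpr with a minimum count of 10, TMM factors of 0.974 to 1.02, quasi-likelihood test, genotype as the only term, Benjamini-Hochberg adjustment over 15746 genes, threshold 0.1). SEs were derived from the F statistic. The biological coefficient of variation of 11.7% and the SEs give the precision. Scripts were tested on simulated data. Members and lists were chosen with earlier results of these data known, Ptprd by its increase.

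Named genes were the 10 members, Pou3f1, at most 6 genes per list with an adjusted p below 0.1 and the largest absolute log2 fold change, the 5 genes most like Ptprd (log2 CPM with a prior count of 2) and its nearest neighbours; Mdk, Ppfia1, Src and the genes marked so were added after their values were seen. A gene that meets this rule is not reported here. The design describes the replicates as paired; over 14793 genes, which are not independent, deviations from the group means had correlations of 0.212, 0.252 and 0.102 between libraries of the same number and −0.195 to −0.0233 otherwise. Alternatives were DESeq2 1.42.0, a replicate block, other size factors, filters and thresholds, and each library left out in turn. Promoter sequences came from RefSeq (GRCm38.p6).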

Additional observations from a re-analysis of the deposited data

How the results depend on the processing

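The log2 fold change of Ptprd ran from 3.99 to 4.53 over 14 alternatives, without a test. The paralogs called higher in KO were 1 under every alternative but a minimum absolute log2 fold change of 1, which left 0. Those called lower were 2, but 1 without a filter, 1 with DESeq2 and a replicate block, 1 at an adjusted p below 0.05, 0 with the minimum fold change, and 1 to 3 with a library left out; the cause was not tested. With a replicate block in edgeR, the paralogs called stayed at 1 higher and 2 lower, and of the calls of named genes that of Src changed, to higher (0.23, adjusted p = 0.0855), while DESeq2 with the block lost, among others, Ptpra, Ptpru, Lurap1l, Il1rap, Gpc6, Pdgfra and Syt1. With a library left out, Ptprk ran from −0.091 to 0.0072 (the latter without KO replicate 2, adjusted p = 0.983) and Ptprm from −0.34 to 0.10 (the latter without KO replicate 3, adjusted p = 0.933), while Gm11263 ran from −0.15 to 0.089 (0.014 without KO replicate 2) and Mdk from −0.19 to 0.0066 (the latter without KO replicate 1), none being called. Neighbours called higher were 4, but 1 with the minimum fold change and 3 with DESeq2 and the block. Of the 5 genes most like Ptprd, 3 were shared with a prior count of 0.5. Grin2a and Arhgef38 then took the place of Tdh and Gm48691. Extracellular partners called higher ran from 2 to 8 and other receptor-type phosphatases from 0 to 3 over 13 alternatives. With 3 libraries per group and at most 37 counts per group for Ptprm and Ptprz1, the SE of Ptprm was 0.46 and Ptprz1 was not tested.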
